A study of Homo sapiens with 13 samples.

Results

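The 10 genes described here move iron into cells, store it, export it or sense it, and they were chosen by name from 43836 genes counted in cultured human osteoblasts. They are the uptake genes TFRC, STEAP2, SLC11A2 and SLC39A14, the storage genes FTH1, FTL and NCOA4, the exporter SLC40A1, and the iron sensors ACO1 and IREB2. The cells were hFOB 1.19, a single immortalized human fetal osteoblast line, and polyA-selected mRNA was sequenced. The positive controls (2 libraries) were grown with 10% fetal bovine serum, and the negative controls (2 libraries) were serum-starved. The treated osteoblasts were kept without serum and received 1 compound at 1 µg/mL. It was resveratrol (RES, 3 libraries), peonidin-3-glucoside (POG, 3 libraries) or a compound labelled DEG (2 libraries). Of 3 samples labelled DEG, the deposited counts held columns for 2. The treatment notes list delphinidin-3-glucoside but do not tie it to the letters DEG. Resveratrol is a stilbene and peonidin-3-glucoside an anthocyanin. Both controls received the solvent DMSO. The group labels of RES and DEG begin with T1 and that of POG with T2, and the labels do not explain these prefixes. Nothing in the labels says that libraries of a group came from separate cultures, so p-values measure the spread between these libraries, which may be technical.

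Most cells take up iron bound to transferrin through the transferrin receptor, reduce it in the endosome and pass it to the cytosol. Iron that is not used is held inside ferritin, a shell of heavy (FTH1) and light (FTL) chains, and leaves the cell through ferroportin, the product of SLC40A1. When iron is scarce, the iron regulatory proteins encoded by ACO1 and IREB2 bind a short RNA hairpin, the iron-responsive element. Binding near the start of ferritin and ferroportin mRNAs blocks their translation, while binding in the tail of the TFRC mRNA protects it from decay. Of the members, an mRNA count can therefore follow iron most directly for TFRC, whereas ferritin protein is set largely after transcription. Bone-forming cells need iron for collagen hydroxylation and mitochondrial respiration, and excess iron is known to impair them.

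The hairpins are shown because iron regulatory proteins bind such elements, and 4 of the 10 members matched the pattern searched here. The reference MANE Select transcripts (GENCODE v44, hg38) were searched on the transcript strand for a C, 5 stem bases, the loop letters CAGTGN and 5 bases that pair with the stem, G-T pairs allowed. This pattern occurred in 256 of 19061 transcripts, or 1.34%. TFRC held 4 matches, and the next highest number in any transcript was 2. FTH1, FTL and SLC40A1 each held 1 match in the 5' UTR, where 0.0997% of transcripts had one. The sequences run 5' to 3' on the transcript strand, from reference sequence, with the loop in capitals. The first 4 lie in the 3' UTR of TFRC on the minus strand at chr3:196050979-196051007, chr3:196050575-196050603, chr3:196050510-196050538 and chr3:196050463-196050491. The others lie at chr11:61967574-61967602 (FTH1, minus strand), chr19:48965335-48965363 (FTL, plus strand) and chr2:189580661-189580689 (SLC40A1, minus strand).
TFRC hairpin 1: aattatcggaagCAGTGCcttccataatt
TFRC hairpin 2: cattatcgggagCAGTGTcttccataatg
TFRC hairpin 3: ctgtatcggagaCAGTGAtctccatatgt
TFRC hairpin 4: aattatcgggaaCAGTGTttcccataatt
FTH1 hairpin: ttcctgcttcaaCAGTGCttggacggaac
FTL hairpin: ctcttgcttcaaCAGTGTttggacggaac
SLC40A1 hairpin: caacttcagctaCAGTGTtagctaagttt
The FTH1 and FTL hairpins share most of their letters, although the genes sit on different chromosomes. These letters were not found in the transcripts searched for SLC11A2, STEAP2, SLC39A14, NCOA4, ACO1 and IREB2, which says nothing of their other isoforms. The pattern required all 5 stem positions to pair, so hairpins with a bulge or a mismatch there would be missed, in TFRC as well. SLC11A2 is known to make mRNAs with and without an iron-responsive element, and a count per gene does not tell them apart.

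Libraries held 38464619 to 51416358 counted reads, and levels are given as CPM (reads per gene scaled to a common library total) after scaling libraries by TMM. Values that compare genes are CPM per kilobase of the MANE Select transcript. A gene counted as called when its false discovery rate (FDR) in edgeR's exact test was under 0.05, adjusted over all 17092 genes tested. The positive controls differed from each other more than other replicates did, with a mean squared difference of 10.44 times counting noise against 2.05 to 2.63 in the other groups. Osteoblast markers were led by COL1A1 (2845 CPM in negative controls), while the osteoblast transcription factor SP7 and the matrix gene IBSP were at 0.0629 and 0 CPM. The 8 macrophage and osteoclast markers summed to 13.6 to 17.4 CPM in any library, mostly CTSK (10.5 CPM in negative controls). The 7 erythroid markers reached at most 0.285 CPM and the 4 hepatocyte markers at most 0.331 CPM. In bulk RNA, fewer cells of a type and less RNA per cell cannot be told apart.

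All 10 members passed the filter on low counts. FTH1 was the sixth most abundant of all tested genes by CPM, and SLC40A1 the least abundant member at rank 10754. Per kilobase, negative controls held 2820.0 CPM of FTH1 and 1219 of FTL, the ferritin chains. SLC39A14, which carries iron not bound to transferrin and also zinc and manganese, followed at 102, and TFRC at 43.4. NCOA4, SLC11A2, ACO1 and IREB2 stood between 12.7 and 32.4 CPM per kilobase. STEAP2 (3.25) and SLC40A1 (1.67) were lowest. The range over groups differed by gene. The highest group mean was 1.51 times the lowest for TFRC (POG over RES), 1.40 times for FTL (DEG over RES), 1.39 times for FTH1 (negative over positive control) and 1.36 times for SLC39A14 (negative control over POG). It was 1.12 times for SLC11A2, the narrowest range.

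**Figure D1:**
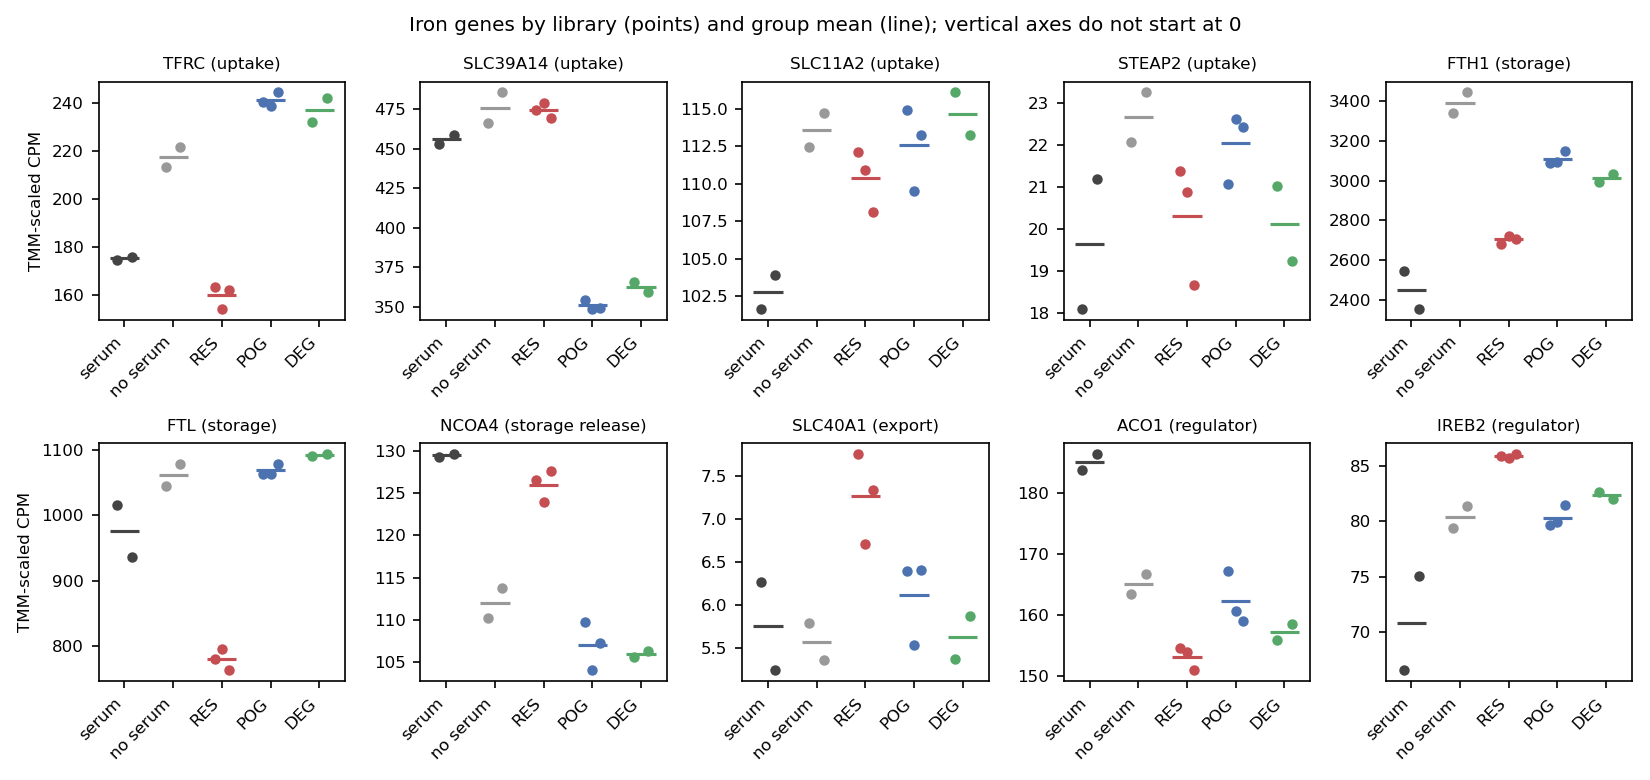
TMM-scaled CPM (vertical axes, which do not start at 0) of each of the 10 iron genes in every library (points) of the 5 groups, with the group mean as a line. TFRC and FTL were lowest in RES, SLC39A14 was lowest in POG and DEG, and FTH1 was highest in the negative controls.

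Against the negative controls, serum moved 8 of the 10 members (2 higher, 6 lower), where 42.4% of all tested genes were called (21.5% higher, 20.9% lower). RES moved 6 (2 higher, 4 lower), against 11.2% of all tested genes (4.94% higher, 6.25% lower). POG moved 3 (1 higher, 2 lower), where 14.6% of tested genes were called (5.98% higher, 8.6% lower). DEG also moved 3 (1 higher, 2 lower), where 9.64% were called (3.52% higher, 6.11% lower). Leaving out 1 library gave 3 to 5 members with RES, the lowest without negative control replicate 1, where 4.98% to 8.65% of tested genes were called. With serum, POG and DEG, fewer members were called in some fits without 1 control or DEG library. Each of these fits left 1 library in a group, and fewer of all tested genes were called in them too. Under scaling by plain library totals the members split into 2 higher and 3 lower with RES, while the higher share of all called genes went from 44.1% to 64.0% with RES, from 41.0% to 56.0% with POG and from 36.6% to 49.4% with DEG. The called members were TFRC, FTH1 and SLC39A14 in both POG and DEG. The median log2 fold change of the 10 members was -0.13 for serum, -0.08 for RES, -0.02 for POG and -0.03 for DEG. That of all tested genes lay within 0.01 of 0. Regardless of direction, the median size of change with serum was 0.175 for the members and 0.215 for all tested genes. It was 0.164 and 0.098 with RES, 0.053 and 0.105 with POG, and 0.076 and 0.103 with DEG. Only with RES did the members exceed all tested genes. Whether the abundance of members raised their share called was not tested. Changes were small: the largest among these comparisons was a fall of 0.47 on the log2 scale. The 4 comparisons share the same pair of negative control libraries, so a deviation in those libraries enters all of them.

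TFRC encodes the transferrin receptor (ENSG00000072274.12, chr3:196012511-196082153, minus strand). It stood at 213 and 222 CPM in the negative controls and at 175 and 176 CPM with serum. RES-treated osteoblasts held 163, 154 and 162 CPM, while POG gave 240.2, 239 and 244 CPM and DEG 232 and 242 CPM. The groups did not overlap except POG and DEG: RES was lowest, then serum, then the negative controls, then POG and DEG. As compared with negative controls, TFRC fell by 0.44 on the log2 scale with RES (SE 0.0327, FDR = 2.99e-31) and fell by 0.31 with serum (SE 0.0359, FDR = 8.15e-14). It rose by 0.15 with POG (SE 0.0326, FDR = 8.13e-04) and by 0.12 with DEG (SE 0.0357, FDR = 0.0249). The falls held under every alternative tried, whereas the rises did not. Without negative control replicate 1 the rise was no longer called with POG (FDR = 0.102) or DEG (FDR = 0.348), and the DEG call was also lost without DEG replicate 2 (FDR = 0.369) or without a filter on low counts (FDR = 0.0625).

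The 15 proliferation markers summed to 3992 to 4073 CPM with RES, 4166 to 4184 CPM in negative controls, 4378 to 4449 CPM with POG, 4340 to 4343 CPM with DEG and 4358 to 4436 CPM with serum. TFRC, which dividing cells are known to express strongly, was also lower with RES and higher with POG and DEG than in negative controls, but was low with serum. The markers did not move as 1 block. MKI67 and TOP2A, the most abundant of the list, averaged 771 and 673 CPM with RES and 932 and 785 CPM with POG. The replication genes MCM2, MCM3, MCM5 and PCNA instead had their highest group means with RES, where MCM3 and MCM5 were called higher than in negative controls and MCM2 and PCNA were not called. MCM5 averaged 235 CPM with RES, 214 CPM in negative controls, 209 CPM with DEG and 203 CPM with POG. These markers were picked out after their values were seen. Of the 15, 8 rose and 1 fell with serum, 2 rose and 4 fell with RES, 5 rose with POG and 3 rose with DEG. Of all tested genes, 21.5% rose and 20.9% fell with serum, and 4.94% rose and 6.25% fell with RES. With POG 5.98% rose and 8.6% fell, and with DEG 3.52% rose and 6.11% fell. Regardless of direction, the median size of change of the markers was below that of all tested genes in each comparison (0.120 against 0.215 with serum). The part of these markers in the TFRC result was not tested.

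SLC39A14 (ENSG00000104635.13, chr8:22367278-22434129, plus strand), also called ZIP14, was the uptake gene that separated the compounds in the other direction. Negative controls held 466 and 486 CPM, serum 453 and 459 CPM, and RES 475, 479 and 469.6 CPM. POG-treated osteoblasts held 354, 349 and 349.5 CPM, and DEG-treated osteoblasts 366 and 359.7 CPM. Every POG and DEG library was below every other library. The gene fell by 26.3% with POG (log2 fold change -0.44, SE 0.0270, FDR = 1.88e-40) and by 23.8% with DEG (log2 fold change -0.39, SE 0.0299, FDR = 7.02e-26). With RES the log2 difference was -0.0051, with a 95% interval of -0.06 to 0.05. With serum it was -0.06 and not called (FDR = 0.145), although scaling by plain library totals gave -0.11 and a call (FDR = 0.00781).

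The other uptake genes changed little. SLC11A2, or DMT1, which passes ferrous iron from the endosome to the cytosol (ENSG00000110911.14, chr12:50979401-51028566, minus strand), stood at 112 and 115 CPM in negative controls and at 102 and 104 CPM with serum. It fell by 0.14 on the log2 scale with serum (SE 0.0388, FDR = 0.00202). Its levels of 108 to 116 CPM in the compound groups were not called against the negative controls. STEAP2, a metalloreductase (ENSG00000157214.13, chr7:90167590-90238137, plus strand), was at 22.1 and 23.3 CPM in negative controls and 18.1 and 21.2 CPM with serum, a fall of 0.21 (SE 0.0789, FDR = 0.0248). In the treated cells STEAP2 ranged from 18.7 to 22.6 CPM, with no call. Both serum calls were fragile. Without negative control replicate 2 neither was called (FDR = 0.0585 for SLC11A2 and 0.215 for STEAP2), and STEAP2 was lost without positive control replicate 1 as well (FDR = 0.465). With dispersions from the compared groups alone, both were lost (FDR = 0.0656 and 0.0618), and STEAP2 was also lost in DESeq2 (FDR = 0.0532).

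FTH1, the ferritin heavy chain that oxidizes ferrous iron (ENSG00000167996.15, chr11:61959718-61967634, minus strand), was lower than in negative controls in all 4 other groups. It stood at 3341 and 3444 CPM in the negative controls and at 2543 and 2354 CPM with serum. RES gave 2680.3, 2723 and 2707 CPM, POG 3086, 3091 and 3147 CPM, and DEG 2991 and 3035 CPM. None of the 5 groups overlapped. FTH1 fell by 27.8% with serum (log2 fold change -0.47, SE 0.0272, FDR = 1.50e-35) and by 20.3% with RES (log2 fold change -0.33, SE 0.0246, FDR = 3.92e-20). It fell by 11.2% with DEG (log2 fold change -0.17, SE 0.0272, FDR = 1.27e-04). With POG it fell by 8.39% (log2 fold change -0.13, SE 0.0247, FDR = 0.00237). The POG fall was not called without negative control replicate 2 (FDR = 0.156).

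FTL, the ferritin light chain that favours the iron core (ENSG00000087086.14, chr19:48965309-48966879, plus strand), moved differently from its partner. Negative controls held 1045 and 1079 CPM, serum 1017 and 936 CPM, POG 1064, 1063 and 1079 CPM, and DEG 1092 and 1094 CPM. RES-treated osteoblasts held only 779.6, 795 and 762 CPM, below every other library. With RES, FTL fell by 26.6% (log2 fold change -0.45, SE 0.0283, FDR = 2.01e-34), and no alternative ended that call. The serum difference was -0.12 (SE 0.0312, FDR = 0.00527), and the call was lost without positive control replicate 2 (FDR = 0.0992), without negative control replicate 2 (FDR = 0.146) and with dispersions from the compared groups alone (FDR = 0.127). With POG and DEG the differences were 0.01 and 0.04 on the log2 scale, with 95% intervals of -0.05 to 0.07 and -0.02 to 0.11. Rows for ferritin pseudogenes, which resemble the parent genes, held 0.617% to 0.714% of the FTH1 reads and 0.193% to 0.286% of the FTL reads. The neighbour BEST1, which overlaps FTH1 on the other strand, held at most 0.751% of its reads.

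NCOA4 is the cargo receptor that delivers ferritin to the lysosome so that its iron is released (ENSG00000266412.5, chr10:46005088-46030623, minus strand). It stood at 110.2 and 114 CPM in negative controls, 129 and 129.6 CPM with serum, and 126, 124 and 128 CPM with RES. POG gave 109.8, 104 and 107 CPM, and DEG gave 106 in both libraries. NCOA4 thus rose in the groups in which FTH1 fell most. The rise was 0.21 on the log2 scale with serum (SE 0.0379, FDR = 2.25e-06) and 0.17 with RES (SE 0.0349, FDR = 2.23e-04). The RES rise was not called without negative control replicate 1 (FDR = 0.0559). The differences of -0.07 with POG (FDR = 0.278) and -0.08 with DEG (FDR = 0.258) were not called.

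SLC40A1, or ferroportin, the only known iron exporter of human cells (ENSG00000138449.10, chr2:189560590-189583758, minus strand), was scarce. It ranged from 5.24 to 6.27 CPM in both sets of controls, 5.53 to 6.41 CPM with POG and 5.37 to 5.88 CPM with DEG. RES-treated osteoblasts held 7.76, 6.71 and 7.34 CPM, above every other library. The rise with RES was 0.38 on the log2 scale (SE 0.113, 95% interval 0.15 to 0.62, FDR = 0.0114). It rested on few reads per library, 213 and 224 in negative controls and 300 to 346 with RES. Without negative control replicate 1 or 2, or without RES replicate 1, the rise was not called (FDR = 0.0637, 0.209 and 0.0727).

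The iron sensors moved in opposite directions with serum. ACO1 encodes cytosolic aconitase, which becomes iron regulatory protein 1 when it loses its iron-sulfur cluster (ENSG00000122729.18, chr9:32384603-32454769, plus strand). It stood at 163 and 167 CPM in negative controls, 184 and 186 CPM with serum, and 155, 154 and 151 CPM with RES. It rose by 0.16 on the log2 scale with serum (SE 0.0352, FDR = 1.01e-04) and fell by 0.11 with RES (SE 0.0324, FDR = 0.0258). IREB2 encodes iron regulatory protein 2, which is degraded when iron is plentiful (ENSG00000136381.12, chr15:78437431-78501453, plus strand). It stood at 79.4 and 81.4 CPM in negative controls, 66.6 and 75.1 CPM with serum, and 85.8, 85.7 and 86.1 CPM with RES. IREB2 fell by 0.19 with serum (SE 0.0461, FDR = 5.90e-04), which was no longer called once positive control replicate 1 was left out (FDR = 0.104). The RES difference of 0.09 was not called (FDR = 0.163), although dispersions from the compared groups alone gave a call (FDR = 0.0468). With POG and DEG, ACO1 (156 to 167 CPM) and IREB2 (79.6 to 82.6 CPM) were not called. The ACO1 fall with RES was lost under plain library totals (FDR = 0.127), without a filter on low counts (FDR = 0.112) and without any single negative control or RES library (FDR = 0.0513 to 0.301).

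**Figure D2:**
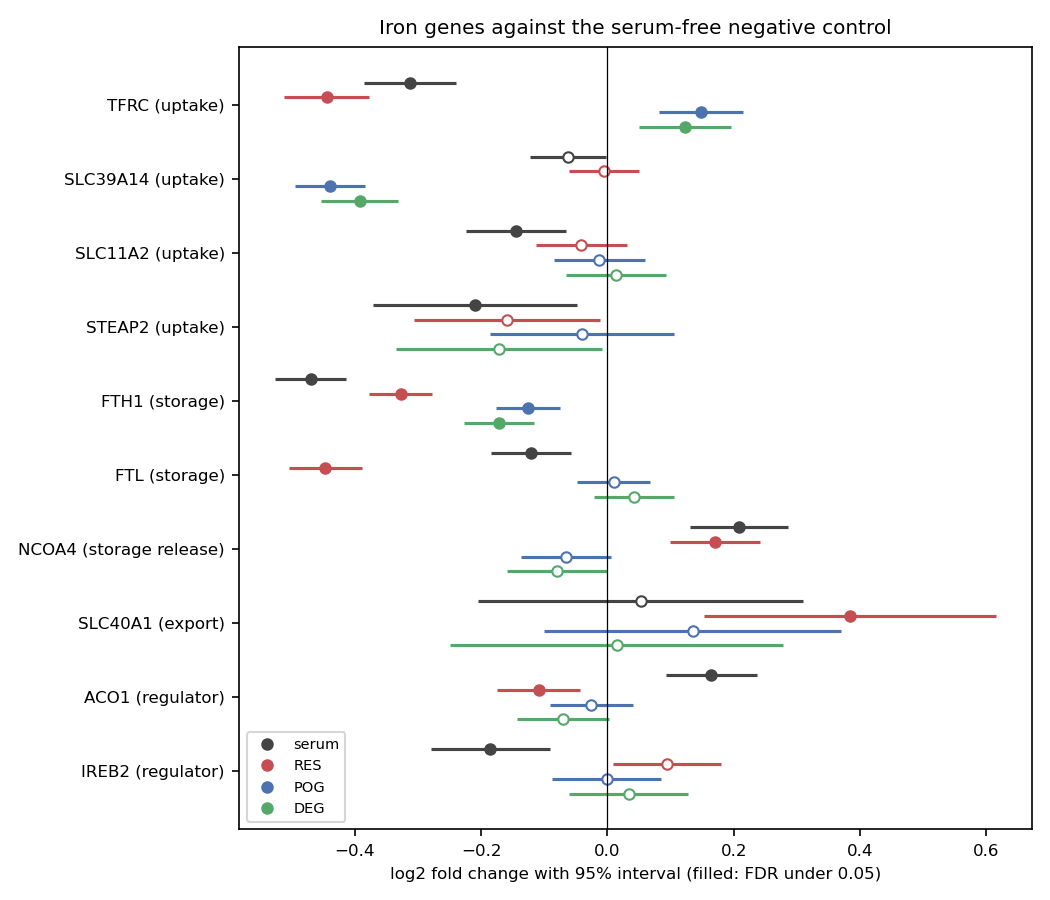
Log2 fold change against the negative controls (horizontal axis) of each iron gene for the 4 other groups, with 95% intervals from edgeR's quasi-likelihood fit and filled points where FDR was under 0.05. FTL and SLC40A1 were called with RES and not with POG or DEG, and SLC39A14 was called with POG and DEG and not with RES, differences that were also called between the compounds.

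The compounds were tested against one another at the matched dose in 3 pairs, which do not involve the negative controls. POG and RES differed in 8 of the 10 members (4 higher and 4 lower with POG), where 27.9% of all tested genes were called (13.7% higher, 14.1% lower). TFRC was higher with POG by 0.59 on the log2 scale, or 1.51 times (SE 0.0293, FDR = 2.32e-71). FTL was higher by 0.46 (SE 0.0255, FDR = 3.54e-45) and FTH1 by 0.20 (SE 0.0222, FDR = 5.86e-10). SLC39A14 was lower with a log2 fold change of -0.43 (SE 0.0243, FDR = 2.62e-49), as was NCOA4 (-0.23, SE 0.0309, FDR = 6.34e-11). None of these 5 calls was lost under any alternative. Smaller differences were found for ACO1 (0.08, FDR = 0.0326), SLC40A1 (-0.25, FDR = 0.0410) and IREB2 (-0.10, FDR = 0.0480). Without a filter on low counts these last were not called (FDR = 0.0876, 0.0638 and 0.0957), and SLC40A1 and IREB2 were not called in edgeR's quasi-likelihood test (FDR = 0.0578 and 0.0535) or in DESeq2 (FDR = 0.0954 and 0.0664). The IREB2 call was lost without any single library of the pair (FDR = 0.0759 to 0.146). The ACO1 call was lost without any single RES library (FDR = 0.0576 to 0.147) or without POG replicate 1 or 2 (FDR = 0.228 and 0.0611). The SLC40A1 call was lost without RES replicate 1 or 3 (FDR = 0.187 and 0.101) or POG replicate 1 or 2 (FDR = 0.0502 and 0.226). The count of members was 5 without RES replicate 1 or 3 or POG replicate 1 or 2, beside 22.9% to 23.5% of all tested genes.

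DEG and RES differed in 6 members (3 higher and 3 lower with DEG), where 21.2% of all tested genes were called (10.4% higher, 10.9% lower). TFRC was higher with DEG by 0.57 (SE 0.0325, FDR = 1.47e-52), FTL by 0.49 (SE 0.0283, FDR = 6.49e-42) and FTH1 by 0.16 (SE 0.0247, FDR = 5.13e-05). SLC39A14 was lower, with a log2 fold change of -0.39 (SE 0.0275, FDR = 2.21e-30), as were NCOA4 (-0.25, SE 0.0351, FDR = 2.07e-09) and SLC40A1 (-0.37, SE 0.113, FDR = 0.00899). The SLC40A1 call was lost without RES replicate 1 (FDR = 0.0568) or DEG replicate 1 (FDR = 0.182).

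DEG and POG did not differ in any member by edgeR's exact test, where 1.07% of all tested genes were called (0.573% higher, 0.497% lower). The count was 0 of 10 at an unadjusted p under 0.05 as well, and 0 by edgeR's quasi-likelihood test and by DESeq2. The shares of all tested genes under these alternatives are not given here. With 1.07% of all tested genes called, 0 of 10 says little about the members in particular. The 95% intervals of the log2 difference, DEG minus POG, were -0.09 to 0.04 for TFRC, -0.01 to 0.10 for SLC39A14, -0.10 to 0.01 for FTH1 and -0.03 to 0.09 for FTL. For the scarce genes the intervals were wider, at -0.28 to 0.02 for STEAP2 and -0.36 to 0.11 for SLC40A1.

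**Figure D3:**
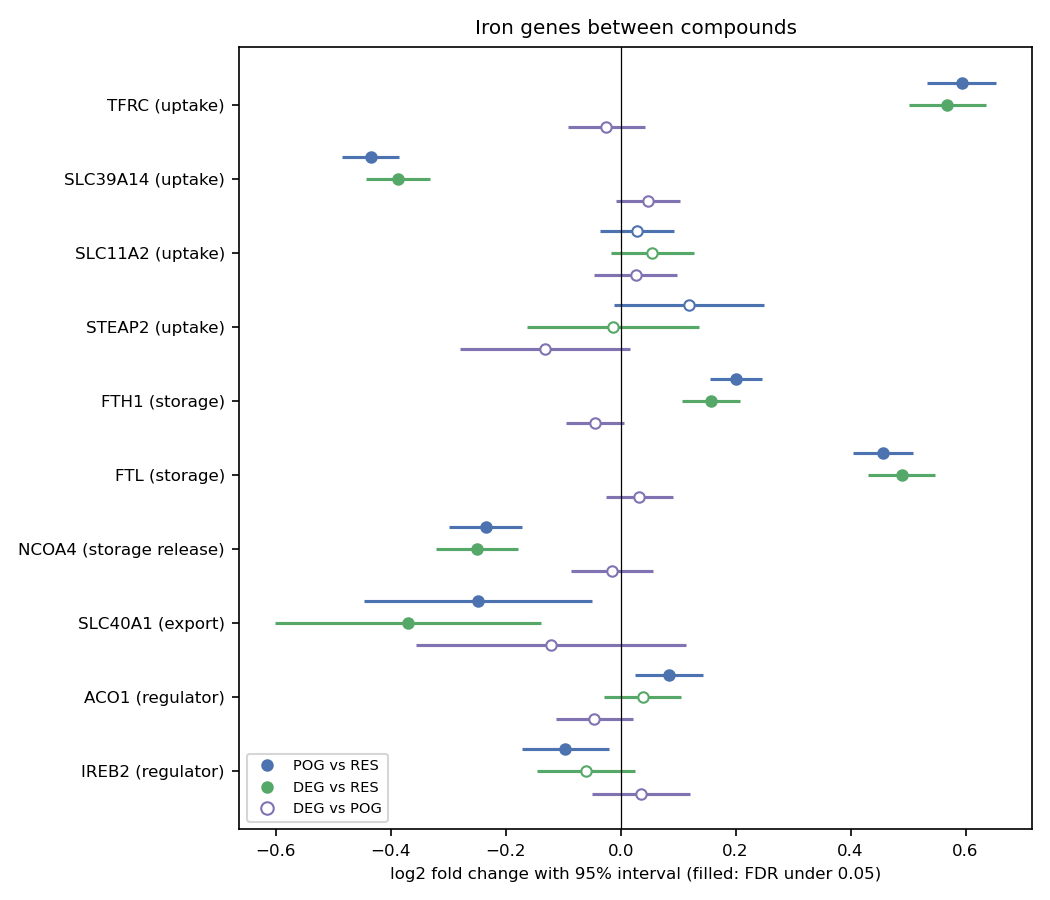
Log2 fold change between compounds (horizontal axis) of each iron gene for POG against RES, DEG against RES and DEG against POG, with 95% intervals and filled points where FDR was under 0.05. POG and DEG both stood above RES for TFRC, FTL and FTH1 and below it for SLC39A14 and NCOA4, while no DEG against POG point is filled.

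Ratios within a library need no scaling between libraries, and they are given as descriptions without a test. FTH1 exceeded FTL per kilobase by 2.31 times in both negative controls, by 1.81 to 1.82 times with serum and by 2.48 to 2.57 times with RES. It was 2.10 to 2.11 times with POG and 1.98 to 2.01 times with DEG, so the balance of ferritin chains differed between groups with no overlap. Together the ferritin chains took 0.436% to 0.449% of all reads in negative controls, 0.318% to 0.342% with serum, 0.351% to 0.356% with RES, 0.419% to 0.427% with POG and 0.411% to 0.416% with DEG. TFRC reads were 6.39% to 6.44% of FTH1 reads in negative controls and 5.66% to 6.09% with RES. They were 7.72% to 7.78% with POG, 7.75% to 7.98% with DEG and 6.86% to 7.47% with serum. This ratio covers TFRC and FTH1 alone, and SLC39A14, the most abundant uptake gene, was lowest with POG and DEG. ACO1 exceeded IREB2 per kilobase by 1.74 to 1.75 times in negative controls, by 2.11 to 2.35 times with serum and by 1.49 to 1.53 times with RES.

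**Figure D4:**
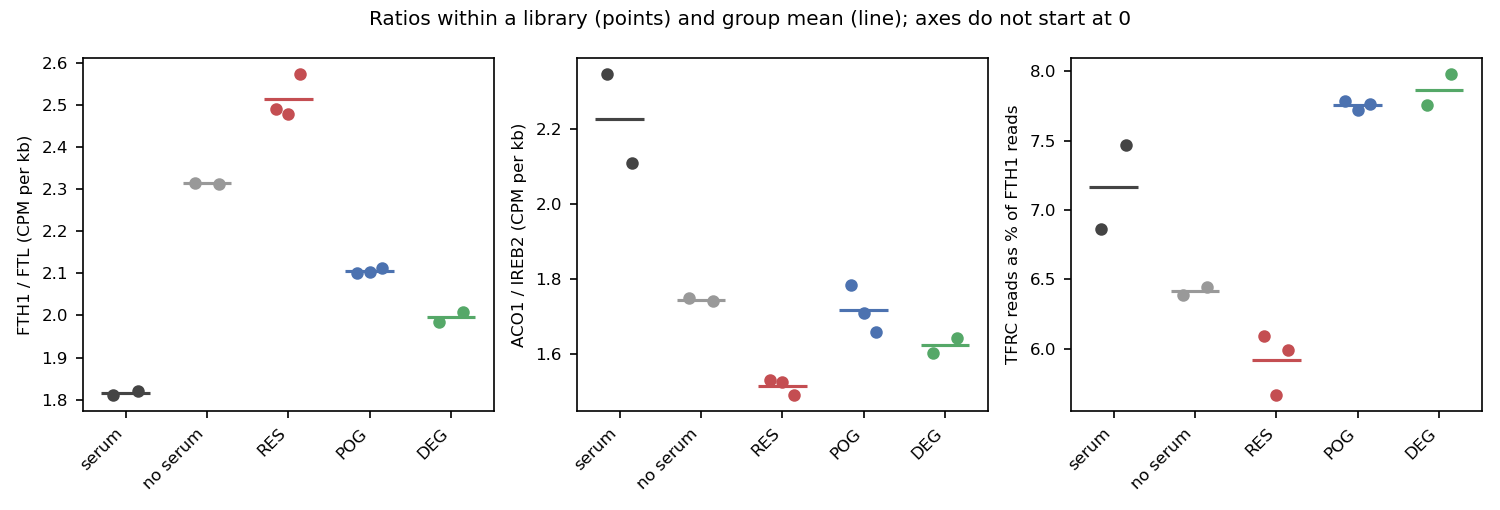
Ratios within each library (points) by group, with the group mean as a line: FTH1 over FTL per kilobase, ACO1 over IREB2 per kilobase, and TFRC reads as a percentage of FTH1 reads. RES had the highest FTH1 over FTL ratio and the lowest TFRC share.

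A wider list of 73 genes of iron handling, none of them a member, was counted beside these, and 62 were tested. Serum moved 36 of the 62 (18 higher, 18 lower), or 58.1%, beside 42.4% of all tested genes. RES moved 6 (9.68%), POG 14 (22.6%) and DEG 10 (16.1%), beside 11.2%, 14.6% and 9.64% of all tested genes. These counts depended on single libraries. POG moved 4 genes (6.35%) without either negative control, beside 7.69% and 7.63% of all tested genes, and 9 (14.5% to 14.8%) without any single POG library, beside at most 11.4%. DEG moved 1 to 6 (1.61% to 9.52%), beside 4.81% to 5.25% of all tested genes, the fewest without DEG replicate 2. RES moved 4 (6.35%) without either negative control, beside 4.98% and 5.26% of all tested genes, and 4 (6.45%) without RES replicate 1, beside 8.23%. The median log2 fold change of the 62 was 0.06 with serum and within 0.01 of 0 with each compound. Several genes of this network were barely transcribed. The transferrin gene TF was at 0.306 CPM in negative controls, ceruloplasmin (CP), a ferroxidase that works with ferroportin, was at 0.0513 CPM, and hepcidin (HAMP), the hormone that degrades ferroportin, and the ferroxidase HEPH were at 0.

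With serum, 9 heme genes rose and 3 fell of 17 tested, and 5 of 8 regulators fell. Of 23 mitochondrial iron and iron-sulfur genes, 6 rose and 6 fell, and of 14 transport genes, 3 rose and 4 fell. Beside these, 21.5% of all tested genes were higher and 20.9% lower. ABCG2, which exports heme precursors, rose by 1.19 on the log2 scale from 1.04 to 2.38 CPM (SE 0.302, FDR = 4.05e-04). BOLA3, an iron-sulfur cluster assembly factor, rose by 0.85 (8.21 to 14.8 CPM, SE 0.101, FDR = 5.90e-16). The zinc and iron transporter SLC39A8, the closest relative of SLC39A14, fell by 1.15 (28.8 to 12.97 CPM, SE 0.0720, FDR = 9.72e-55), while SLC39A14 itself was not called. BMP6, which induces hepcidin, fell by 0.72 (FDR = 0.00950), and the heme exporter FLVCR1 by 0.51 (FDR = 1.47e-09). Without negative control replicate 1 the calls of ABCG2 (FDR = 0.0678) and BMP6 (FDR = 0.0937) were lost, and BMP6 was also lost without positive control replicate 2 (FDR = 0.260).

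With RES, HMOX1, the heme oxygenase that frees iron from heme, fell by 0.32 on the log2 scale (24.4 to 19.5 CPM, SE 0.0627, FDR = 2.46e-05). STEAP3, the main endosomal ferrireductase of the transferrin cycle, fell by 0.21 (125 to 108 CPM, FDR = 2.83e-06), and SLC22A17, a lipocalin receptor, fell by 0.18 (FDR = 0.00740). MELTF, melanotransferrin, rose by 0.24 (65.4 to 77.3 CPM, FDR = 8.84e-06), and BOLA3 rose by 0.27 (FDR = 0.0478). The SLC22A17 fall was lost without negative control replicate 2 (FDR = 0.221), and the BOLA3 rise was lost without negative control replicate 1 (FDR = 0.628) or any RES library (FDR = 0.0652 to 0.159) and in DESeq2 (FDR = 0.0882).

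With POG, 4 of 23 mitochondrial iron and iron-sulfur genes rose and 1 fell, 1 of 14 transport genes rose and 4 fell, 1 of 8 regulators rose and 2 fell, and 1 of 17 heme genes rose. Of all tested genes, 5.98% rose and 8.6% fell. NFS1, the cysteine desulfurase that supplies the sulfur, rose by 0.24 (15.8 to 18.7 CPM, FDR = 0.0117), NUBP1, a cytosolic cluster scaffold, by 0.24 (FDR = 0.0126) and BOLA3 by 0.26 (FDR = 0.0482). The lysosomal channel MCOLN1 fell by 0.25 (FDR = 0.00108), the mitochondrial transporter ABCB8 by 0.20 (FDR = 0.0183) and SLC39A8 by 0.17 (FDR = 0.0443). With DEG, NFS1 rose by 0.26 (FDR = 0.0195), MELTF by 0.18 (FDR = 0.00676) and the bilirubin-forming reductase BLVRA by 0.18 (FDR = 0.0482). The metalloreductase STEAP1 fell by 0.34 (FDR = 0.0124), SLC39A8 by 0.29 (FDR = 8.68e-04) and UROS, a heme synthesis enzyme, by 0.25 (FDR = 0.0145). None of these 12 calls held in every fit that left out 1 library. Without negative control replicate 1, FDR was 0.634 for BOLA3, 0.0841 for NUBP1, 0.263 for NFS1 and 0.101 for ABCB8 with POG, and 0.291 for NFS1, 0.123 for MELTF, 0.326 for BLVRA, 0.0807 for STEAP1 and 0.135 for UROS with DEG. Without negative control replicate 2, FDR was 0.0649 for MCOLN1, 0.163 for NUBP1, 0.193 for ABCB8 and 0.546 for SLC39A8 with POG, and 0.121 for SLC39A8, 0.122 for BLVRA, 0.111 for STEAP1 and 0.0891 for UROS with DEG. Without POG replicate 1 the calls of NFS1, ABCB8 and SLC39A8 were lost (FDR = 0.0721 to 0.115), without POG replicate 2 those of BOLA3 and SLC39A8 (FDR = 0.213 and 0.219), and without POG replicate 3 those of BOLA3, NUBP1 and ABCB8 (FDR = 0.0988 to 0.170). Without DEG replicate 2 all 6 DEG calls were lost (FDR = 0.0712 to 0.399), and without DEG replicate 1 those of BLVRA and STEAP1 were (FDR = 0.0872 and 0.132).

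Between compounds, POG and RES differed in 15 of the 62 genes (11 higher and 4 lower with POG), or 24.2%, and DEG and RES in 10 (8 higher and 2 lower with DEG), or 16.1%, beside 27.9% and 21.2% of all tested genes. Without RES replicate 1, POG and RES differed in 7 (11.3%, beside 23.5% of all tested genes) and without POG replicate 2 in 9 (14.8%, beside 22.9%). Without DEG replicate 2, DEG and RES differed in 6 (9.68%, beside 12.4%). HMOX1 was higher than with RES by 0.35 on the log2 scale with both POG (SE 0.0554, FDR = 1.57e-08) and DEG (SE 0.0626, FDR = 1.06e-06). SLC22A17 was higher by 0.27 with POG (FDR = 8.25e-08) and by 0.24 with DEG (FDR = 5.66e-05). SLC39A8 was lower than with RES, as SLC39A14 was, with log2 fold changes of -0.26 for POG (FDR = 1.81e-05) and -0.38 for DEG (FDR = 4.11e-08). UROS was lower as well, at -0.23 (FDR = 0.00107) and -0.38 (FDR = 1.14e-06). DEG and POG differed in 1 gene, ERFE, or erythroferrone, which was lower with DEG (-0.20, FDR = 0.0438). That call was lost without any single library of the pair (FDR = 0.128 to 0.528), in edgeR's quasi-likelihood test (FDR = 0.110) and in DESeq2 (FDR = 0.0940).

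**Figure D5:**
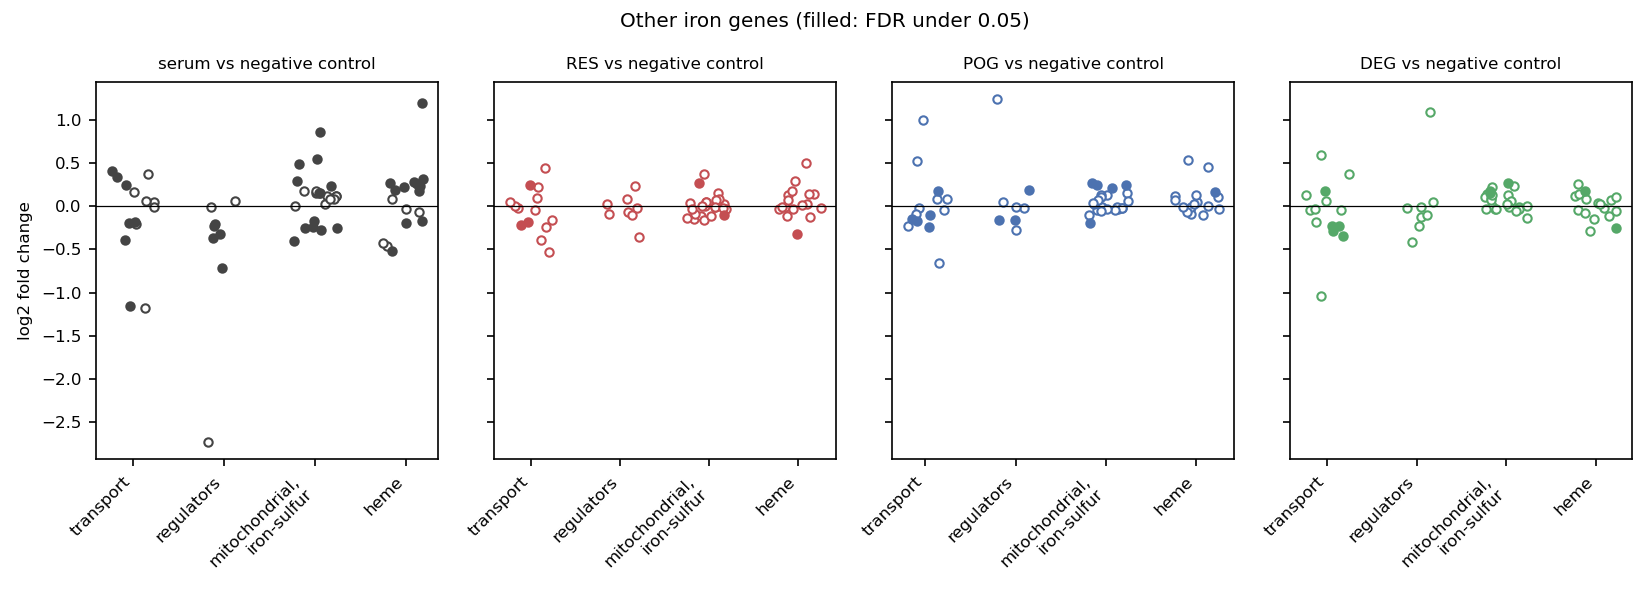
Log2 fold change against the negative controls (vertical axis) of each tested gene of the wider iron list, by functional class (horizontal axis), for serum, RES, POG and DEG, with filled points where FDR was under 0.05. Serum moved 36 of the 62 genes, and RES, POG and DEG moved 6, 14 and 10.

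FTH1 had the largest serum change of the members, so the genes whose fold changes lay closest to its own were listed. Closeness was the Euclidean distance between the 4 log2 fold changes against the negative controls, over 9911 genes averaging 10 CPM or more. Among the 5 closest were LRP4 (0.0527), TMEM231 (0.0799), BGN (0.0924) and ANKRD42 (0.104). All 4 fold changes of each share the negative control libraries, so the distance is a description only.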

How the data were processed

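PolyA-selected mRNA of hFOB 1.19 osteoblasts was sequenced as read pairs. The authors deposited raw read counts per gene, not normalized. Per their methods and processing notes, reads were aligned to hg38 with STAR (BWA MEM was also named), counted with featureCounts and tested with edgeR. The versions, the annotation release, whether strand was used and how multi-mapped reads were handled are not given in the sources used here, so counts of pseudogenes and overlapping genes are uncertain. The table held 43836 genes and 12 library columns, and 43177 genes matched a symbol.

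The filter filterByExpr, applied by group, kept 17092 genes holding 99.967% of the reads. edgeR 4.0.16 in R 4.3.3 was used: TMM scaling, dispersions over all 12 libraries (common biological coefficient of variation 3.2%), the exact test the authors named, and Benjamini-Hochberg adjustment. Standard errors and 95% intervals came from the quasi-likelihood fit. The exact test was also run on simulated counts. Those counts were drawn with dispersions estimated from these same libraries, so that run is no check of the calls reported here. At 208 to 146273 reads per member and library, intervals cover counting and replicate spread only. Replicates were numbered in accession order. Alternatives were the quasi-likelihood test, DESeq2 1.42.0, plain library totals, other filters, an FDR of 0.01, dispersions from the compared groups, and leaving out each library.

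The members and lists were chosen with earlier results of these data known. All 10 members are described. Of other iron genes, at most 3 rises and 3 falls (2 between compounds) were named, by size among called genes with at least 1 CPM in either group. Some genes that this rule, or the rule for the genes closest to FTH1, would name are not reported here.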

Additional observations from a re-analysis of the deposited data

How the results depend on the processing

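The 7 comparisons share libraries, so their member tests are not independent. By comparison, 1.07% to 42.4% of all tested genes were called. Of the 70 member tests, 34 were called. Over 405 refits of these calls, 355 kept the call, 50 lost it and 0 changed direction, and 20 of the 34 calls held in all of them. With dispersions from the compared groups alone, members called with serum went from 8 to 5, other iron genes called with RES from 6 to 14, and those between DEG and POG from 1 to 2. At an FDR of 0.01, members called between POG and RES went from 8 to 5, and other iron genes from 14 to 5 with POG, 10 to 3 with DEG, 15 to 8 between POG and RES, 10 to 6 between DEG and RES and 1 to 0 between DEG and POG. Without a filter on low counts, members called between POG and RES numbered 5 and other iron genes between DEG and POG 0. The quasi-likelihood test and DESeq2 also gave 0 for the latter. In DESeq2, 11 of those genes had no adjusted p-value between DEG and POG and were counted as not called. The share of all tested genes called under these tests, dispersions, FDR and filter settings is not given here. That share can shift as well, so these counts do not show a change particular to the iron genes. Leaving out a control or DEG library left 1 library in that group, so only fits without 1 RES or POG library are summarized here. Against negative controls, they gave 4 to 5 members with RES, beside 8.23% to 8.65% of all tested genes. With POG they gave 3, beside 11% to 11.4%. Between POG and RES they gave 5 to 7, beside 22.9% to 23.5%, and between DEG and RES 5 to 6, beside 17.8% to 18%. Between DEG and POG they gave 0, beside 0.552% to 0.605%. The same fits gave 4 to 8 other iron genes (6.45% to 12.9%) with RES and 9 (14.5% to 14.8%) with POG. They gave 7 to 12 (11.3% to 19.4%) between POG and RES, 8 (12.9%) between DEG and RES and 0 between DEG and POG. The cause of these shifts was not tested, and each such fit also had fewer libraries. Plain library totals moved the median of all tested genes by less than 0.1, but the share of called genes that were higher went from 44.1% to 64.0% with RES, from 41.0% to 56.0% with POG and from 36.6% to 49.4% with DEG. With serum that share went from 50.6% to 41%. Among members, the split under plain totals was 2 higher and 7 lower with serum and 2 and 3 with RES, and was 1 and 2 with both POG and DEG. No paired analysis was possible because replicate numbers follow accession order and tie no libraries together. Groups of 2 or 3 libraries limit small changes and scarce genes such as SLC40A1.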
